A study of Mus musculus with 9 samples.

Results

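Transcripts of the pathways that display peptides to T cells were examined in hearts of adult C57BL/6J mice that the labels give as germline Parkin knockouts and in hearts of adult wild-type C57BL/6J mice. The genes were 10, named by symbol: the class I heavy chains H2-K1 and H2-D1, their light chain B2m, the peptide transporter subunits Tap1 and Tap2, the loading factor Tapbp, the class II chains H2-Aa, H2-Ab1 and H2-Eb1, and the class II invariant chain Cd74. All 10 were found among the 23457 rows of the count table and all 10 were among the 12640 genes with enough reads to be tested. Polyadenylated RNA came from the ventricular apex, although the tissue label reads whole heart, and was sequenced from 4 knockout (KO) and 5 wild-type (WT) hearts, with 1 library per heart. Parkin is a ubiquitin ligase that acts in the removal of damaged mitochondria, and a germline knockout lacks the gene in every cell type, immune cells included. The labels give neither the sex of the mice nor litters, so the p-values measure the spread between these hearts. The direction of every comparison rests on the genotype labels.

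Class I molecules sit on nearly all nucleated cells. They consist of a heavy chain and beta-2-microglobulin and carry peptides that the proteasome cuts in the cytosol and that TAP, a pump built from Tap1 and Tap2, moves into the endoplasmic reticulum. Class II molecules are pairs of an alpha and a beta chain made mainly by macrophages, dendritic cells and B cells. The invariant chain, Cd74, blocks their groove until they reach the endosome. Interferon-gamma raises both sets, through the transactivators NLRC5 for class I and CIITA for class II. In C57BL/6 mice H2-Aa and H2-Ab1 form the class II molecule I-A, and the I-E molecule is missing because its alpha chain gene, H2-Ea, is defective, although H2-Eb1 is transcribed.

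Of the 10 genes, 8 lie within 1.35 Mb of the major histocompatibility complex (GRCm38, chr17:33915899-35267499). From one end to the other they are Tapbp, H2-K1, Tap1, Tap2, H2-Ab1, H2-Aa, H2-Eb1 and H2-D1. B2m lies on chromosome 2 (chr2:122147686-122153083). The promoters of 7 of the 10 were matched by symbol in RefSeq on GRCm38.p6, and 5 are shown because they let the reader compare the H2 heavy chains with their light chain and with class II. Each line holds the 180 bases before the annotated start, 5′ to 3′ on the gene's own strand. Capitals mark exact matches on either strand to the NF-kB element GGGATTCCC, to the inverted CCAAT box CTGATTGG of the class II Y box, and to 2 spacings of the interferon response element, GAANNGAAA and GAAANNGAA.
H2-K1 (chr17:34000334-34000513, minus strand): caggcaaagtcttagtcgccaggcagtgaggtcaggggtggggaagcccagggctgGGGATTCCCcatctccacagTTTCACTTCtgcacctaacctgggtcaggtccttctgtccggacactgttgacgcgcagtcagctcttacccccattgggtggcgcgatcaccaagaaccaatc
H2-D1 (chr17:35262914-35263093, plus strand): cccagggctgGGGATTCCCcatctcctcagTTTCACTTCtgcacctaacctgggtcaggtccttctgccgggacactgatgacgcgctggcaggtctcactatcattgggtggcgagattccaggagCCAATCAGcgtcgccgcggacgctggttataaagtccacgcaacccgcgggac
B2m (chr2:122147507-122147686, plus strand): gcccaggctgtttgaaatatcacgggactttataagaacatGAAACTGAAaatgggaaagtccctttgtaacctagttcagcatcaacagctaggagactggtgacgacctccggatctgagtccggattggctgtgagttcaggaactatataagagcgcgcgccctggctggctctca
H2-Aa (chr17:34287824-34288003, minus strand): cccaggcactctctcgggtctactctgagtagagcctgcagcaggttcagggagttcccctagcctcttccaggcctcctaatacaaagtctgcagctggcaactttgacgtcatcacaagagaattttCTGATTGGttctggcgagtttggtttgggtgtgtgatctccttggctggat
H2-Eb1 (chr17:34305687-34305866, plus strand): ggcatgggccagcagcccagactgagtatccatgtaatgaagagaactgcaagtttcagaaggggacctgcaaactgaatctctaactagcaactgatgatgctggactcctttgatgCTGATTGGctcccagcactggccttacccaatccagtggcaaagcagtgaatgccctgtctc

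Aligned over the longer RefSeq windows, which run from 250 bases before to 50 bases after the start, H2-K1 and H2-D1 were 87.4% identical, with 222 identical bases in 254 aligned columns. The printed stretches of both held the NF-kB element and the shorter interferon element. The NF-kB element occurred in 59 of 32851 windows of the same length in RefSeq (0.180%) and the shorter interferon element in 4.42%. B2m held the longer interferon element, present in 4.89% of windows. The CCAAT box, present in 3.45%, was found in H2-Aa and H2-Eb1, on the strand of the gene, and in H2-D1 on the opposite strand. The printed H2-K1 stretch ends in ccaatc, the first bases of the match in H2-D1, so a match across its edge would not be seen. Another H2-K1 start in RefSeq lies further upstream. Its window held the NF-kB element and the shorter interferon element but no CCAAT match. The windows of Tap1 and Tapbp held none of these 4 strings. The motifs were chosen after the windows had been seen, and a match describes letters and not a bound site.

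Assigned reads ran from 11637206 to 15777844 in KO hearts and from 4415183 to 20827699 in WT hearts, of which hearts 2 and 3 were the shallowest (4415183 and 4655742). Mitochondrially encoded transcripts took 10.04% to 15.41% of reads in KO hearts and 32.62% to 58.20% in WT hearts. Fold changes followed the base composition of transcripts. The 25% of tested genes with the lowest GC content had a median log2 fold change of -0.59 and the 25% with the highest had 0.59. This bears on the antigen presentation genes, because B2m was at the 6.69th percentile of GC content (41.2% GC) while 7 others stood between the 78.9th (H2-D1) and the 86.1st percentile (H2-Ab1). H2-Aa (51.0% GC) and H2-Eb1 (51.8% GC) lay near the middle. The 10 genes and the counts of genes called in the lists around them are therefore given from the counts as deposited and after GC and length trends were removed in every heart, a correction that would also take away a true difference running along either property. Cardiomyocyte transcripts dominated the libraries, with the heavy chain Myh6 at 37640 to 45040 CPM in KO hearts and 26920 to 30060 CPM in WT hearts. WT heart 1, the deepest library, had the highest CPM of its group for 8 of the 10 genes. Among KO hearts, heart 4 was highest for 8 and heart 1 lowest for 9.

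The antigen presentation genes did not change as a block. By edgeR, 5 of the 10 were higher in KO hearts (H2-K1, Tap1, Tap2, Tapbp and H2-Aa) and 1 was lower (B2m), while 26.2% of all tested genes were higher and 25.2% lower. After the correction 1 was higher (Tap2) and 2 were lower (B2m and H2-Ab1), against 18.7% and 19.4% of all genes. The median log2 fold change of the 10 genes was 0.38, or -0.0585 after the correction, and that of all tested genes was -0.0059 and -0.0009. Tap2 and B2m were the genes called in both fits, Tap2 as higher and B2m as lower. CPM here are reads relative to the TMM-scaled library size, adjusted p-values are from edgeR's quasi-likelihood test over all tested genes unless another test is named, and fold changes are KO over WT.

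**Figure D1:**
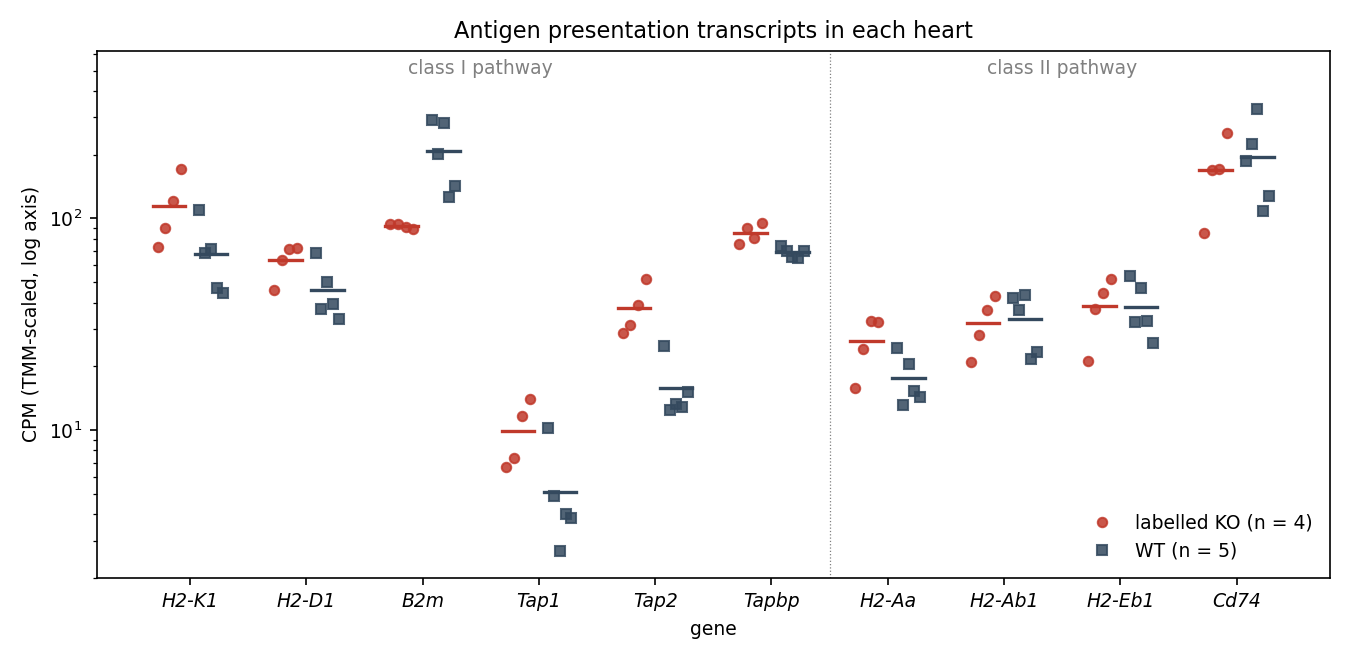
CPM of the 10 antigen presentation genes (log axis) in each heart, with labelled KO hearts as circles on the left of each pair and WT hearts as squares on the right. Horizontal lines mark group means. Tap2 and Tapbp are higher in every KO heart than in any WT heart, and B2m is lower in every KO heart, with KO values between 89.3 and 94.6 CPM.

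Among the class I chains, H2-K1 and B2m moved in opposite directions. H2-K1, the heavy chain of the K molecule, had 73.5, 90.0, 121 and 172 CPM in KO hearts 1 to 4, against 110, 68.7, 71.7, 46.6 and 44.3 CPM in WT hearts 1 to 5. The groups overlapped, since WT heart 1 exceeded KO hearts 1 and 2. The mean was 114 ± 43.1 CPM in KO hearts (SD, n = 4) and 68.2 ± 26.4 CPM in WT hearts (SD, n = 5), a log2 fold change of 0.74 ± 0.26 (adjusted p = 0.029). Once corrected, it was 0.23 ± 0.24 and did not pass (adjusted p = 0.470). H2-K1 kept its call when KO heart 1, KO heart 2 or WT heart 1 was left out, and lost it when any of the other 6 was (adjusted p between 0.0512 and 0.130).

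H2-D1, the heavy chain of the D molecule, had 45.8, 63.8, 71.4 and 72.2 CPM in KO hearts and 68.8, 37.5, 50.1, 39.5 and 33.4 CPM in WT hearts. WT heart 1 again stood among the KO values. Its log2 fold change of 0.45 ± 0.20 did not pass the test (adjusted p = 0.0657), and after the correction it was 0.0051 ± 0.17 (adjusted p = 0.986). Without KO heart 1 or without WT heart 1 it passed, at 0.58 (adjusted p = 0.0211) and 0.66 (adjusted p = 0.00438). Reads of both heavy chains are uncertain, because 8.79% of the 50-base words of H2-K1 and 14.3% of those of H2-D1 occur in another gene, H2-D1 most often for H2-K1 and H2-Q1 most often for H2-D1.

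B2m, which encodes beta-2-microglobulin, had 94.6, 94.5, 91.4 and 89.3 CPM in KO hearts, against 292, 203, 281, 126 and 143 CPM in WT hearts. All KO values lay below all WT values, which held for 19.3% of tested genes in this direction. KO hearts were also far more alike than WT hearts, with 92.5 ± 2.57 CPM (SD, n = 4) and 209 ± 76.6 CPM (SD, n = 5). B2m fell 2.26-fold (log2 fold change -1.17 ± 0.22, adjusted p = 0.000478), and passed with each heart left out (-1.34 to -1.02). In the corrected counts the log2 fold change was -0.64 ± 0.22 (adjusted p = 0.0346) and the groups overlapped, with 97.8 to 126 corrected CPM in KO hearts and 105 to 261 in WT hearts. That corrected call was kept when KO heart 4, WT heart 4 or WT heart 5 was left out, and lost when any of the other 6 was (-0.66 to -0.46, adjusted p between 0.0520 and 0.0871). No 50-base word of B2m occurs in another gene.

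**Figure D2:**
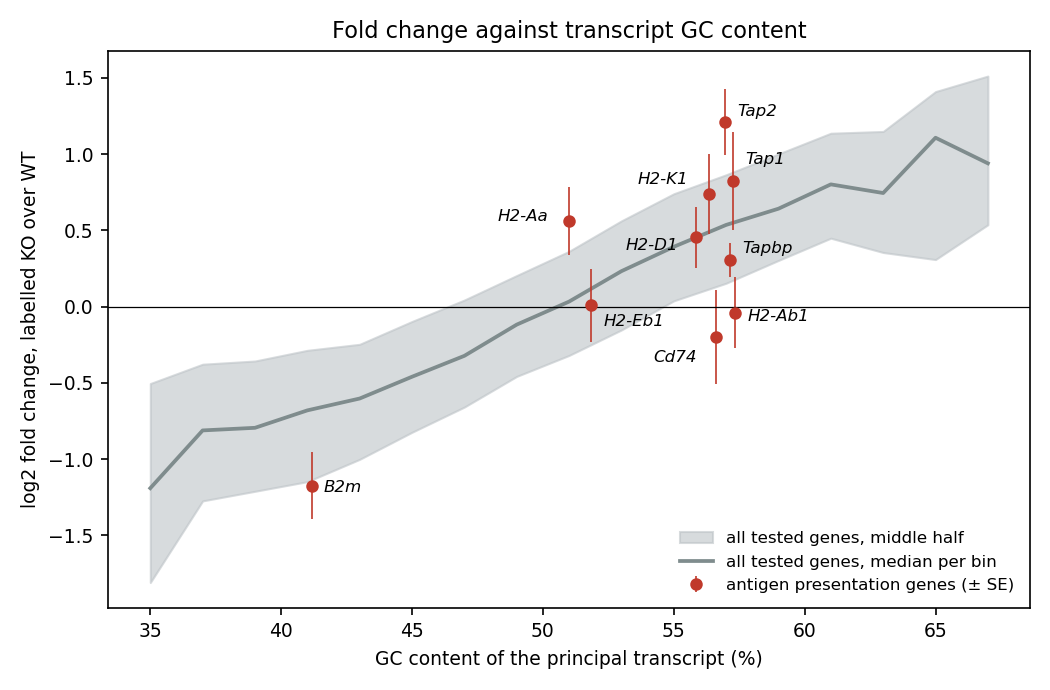
Log2 fold change, KO over WT, against the GC content of each gene's principal transcript in percent. The line and band give the median and interquartile range of all tested genes in bins of GC content, and points with SE bars are the antigen presentation genes. Tap2 and H2-Aa lie above the band, Cd74 and H2-Ab1 lie below it, and H2-D1 lies close to the median line. B2m is at the lower edge of the band for its GC content.

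Both subunits of the TAP pump were higher in KO hearts in the deposited counts. Tap2 had 28.7, 31.3, 39.0 and 51.6 CPM in KO hearts, against 24.8, 12.5, 13.3, 12.9 and 15.1 CPM in WT hearts. Every KO heart exceeded every WT heart, as in 22.3% of tested genes in this direction, and WT heart 1 stood apart from the other WT hearts. The mean was 37.7 ± 10.3 CPM in KO hearts (SD, n = 4) and 15.7 ± 5.19 CPM in WT hearts (SD, n = 5), a 2.31-fold rise (log2 fold change 1.21 ± 0.22, adjusted p = 0.000366). Tap2 also rose after the correction, by 0.68 ± 0.17 on the log2 scale (adjusted p = 0.00705). There the groups touched, as corrected CPM ran from 26.3 to 37.7 in KO hearts and WT heart 1 had 27.7. Tap2 was past the threshold with each heart left out in turn, from 1.02 to 1.47 in the deposited counts and from 0.58 to 0.90 after the correction. The antisense gene Gm15821 overlaps 14.1% of its exonic bases, and the libraries do not keep strand, so reads of the pair cannot be told apart there.

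Tap1 had the fewest reads of the 10 genes, at 6.65, 7.41, 11.6 and 14.03 CPM in KO hearts, against 10.2, 4.86, 2.67, 4.00 and 3.83 CPM in WT hearts. WT heart 1 lay within the KO range and the other WT hearts lay below it. WT heart 3 held 9 Tap1 reads, for which the exact 95% Poisson interval is 1.22 to 5.06 CPM, and WT heart 2 held 14. Tap1 rose by 0.82 ± 0.32 on the log2 scale (adjusted p = 0.0421), and stood at 0.30 ± 0.29 after the correction (adjusted p = 0.439). Without WT heart 1 it was at 1.35 (adjusted p = 0.000929), and 0.78 after the correction as well (adjusted p = 0.0207). The call in the deposited counts was kept without KO heart 1, KO heart 2 or WT heart 1 and lost without any of the others (0.61 to 0.78, adjusted p between 0.0752 and 0.139).

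Tapbp encodes tapasin, which holds empty class I molecules at the TAP pump. It had 76.0, 90.1, 81.1 and 94.7 CPM in KO hearts and 73.8, 70.4, 65.8, 64.8 and 70.3 CPM in WT hearts. The groups did not overlap, as in 22.3% of tested genes in this direction, but lay close together. The log2 fold change was 0.31 ± 0.11 (adjusted p = 0.0321). After the correction Tapbp turned round, to 71.7, 75.3, 69.7 and 69.4 corrected CPM in KO hearts, against 81.4, 85.3, 80.5, 81.5 and 84.7 in WT hearts. Again the groups did not overlap, here as in 15.7% of genes in this direction, and the log2 fold change of -0.21 ± 0.089 did not pass (adjusted p = 0.0791). Its direction depended on the correction. In the deposited counts the call was kept without KO heart 1, WT heart 1 or WT heart 2 and lost without any of the others (0.26 to 0.33, adjusted p between 0.0510 and 0.0929). The antisense gene Gm19412 overlaps 24.9% of the exonic bases of Tapbp.

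**Figure D3:**
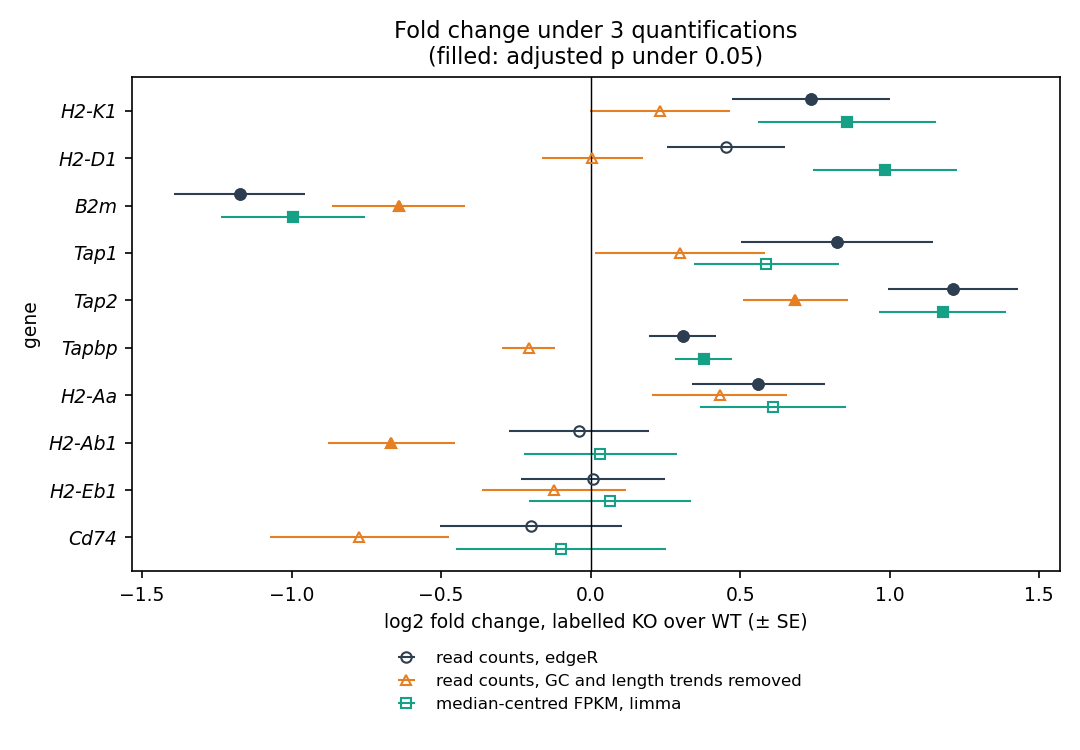
Log2 fold change, KO over WT, with SE for each gene from read counts by edgeR, from read counts with GC and length trends removed, and from median-centred FPKM by limma. Filled symbols passed an adjusted p of 0.05. Tap2 is higher and B2m lower in all 3, Tapbp changes side with the correction, and H2-Ab1 passes as lower after the correction.

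The chains of class II differed in their calls between genotypes. H2-Aa, the alpha chain of I-A, had 15.7, 24.1, 32.9 and 32.4 CPM in KO hearts and 24.4, 13.2, 20.4, 15.3 and 14.4 CPM in WT hearts. The groups overlapped through KO hearts 1 and 2 and WT hearts 1 and 3. H2-Aa rose by 0.56 ± 0.22 on the log2 scale (adjusted p = 0.0464), and stood at 0.43 ± 0.23 after the correction (adjusted p = 0.147). Its call was kept without KO heart 1 or WT heart 1 and lost without any of the other 7 (0.44 to 0.60, adjusted p between 0.0565 and 0.151).

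H2-Ab1, the beta chain that pairs with it, had 20.9, 28.1, 36.7 and 42.9 CPM in KO hearts and 42.1, 36.8, 43.2, 21.6 and 23.3 CPM in WT hearts. Both groups spanned nearly the same range, and the log2 fold change was -0.040 ± 0.23 (adjusted p = 0.900). Once corrected, H2-Ab1 was lower in KO hearts, at -0.67 ± 0.21 (adjusted p = 0.0225). Corrected values were 18.6, 21.9, 30.5 and 30.4 CPM in KO hearts, against 46.6, 47.1, 54.5, 27.6 and 29.3 CPM in WT hearts, so that WT hearts 4 and 5 stayed within the KO range. In corrected CPM none of the 10 genes was higher in every KO heart than in any WT heart, against 16.2% of all genes. The corrected call of H2-Ab1 was lost without KO heart 1, KO heart 2, WT heart 1 or WT heart 3 (-0.60 to -0.54, adjusted p between 0.0509 and 0.0656).

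H2-Eb1, a beta chain without its partner in this strain, had 21.2, 37.3, 44.3 and 51.5 CPM in KO hearts and 53.3, 32.3, 46.8, 32.7 and 25.9 CPM in WT hearts, which overlapped over nearly all of their range. Its log2 fold change was 0.0078 ± 0.24 (adjusted p = 0.982), and -0.12 ± 0.24 after the correction (adjusted p = 0.723). Cd74 had the widest range of CPM. It had 84.9, 169, 172 and 252 CPM in KO hearts and 186, 226, 329, 108 and 128 CPM in WT hearts, with the shallow WT heart 3 highest. The log2 fold change of Cd74 was -0.20 ± 0.31 (adjusted p = 0.604), and -0.77 ± 0.30 after the correction (adjusted p = 0.0537). That corrected value passed when KO heart 4, WT heart 4 or WT heart 5 was left out (adjusted p = 0.0319, 0.0206 and 0.0415). In tissue RNA, fewer cells of a type and less RNA per cell cannot be told apart.

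Ratios between partner transcripts within a heart do not depend on library scaling. Of 6 pairs compared by two-sided exact permutation of the 9 hearts, 3 passed after adjustment over the 6, and in each the groups did not overlap. The class II pairs among them share H2-Aa. For single genes, CPM of the groups did not overlap in 22.3% of all tested genes with KO higher and in 19.3% with KO lower. How often other pairs of genes would pass was not tested. The ratio of B2m to H2-K1 reads was 1.29, 1.05, 0.754 and 0.521 in KO hearts, against 2.66, 2.95, 3.92, 2.70 and 3.22 in WT hearts. B2m reads thus exceeded H2-K1 reads in 2 of 4 KO hearts and in 5 of 5 WT hearts. Reads are not per length, and in FPKM this ratio ran from 1.08 to 2.66 in KO hearts and from 5.59 to 8.40 in WT hearts. In reads the difference was -1.84 on the log2 scale (exact permutation p = 0.0079, adjusted p = 0.032), where 0.0079 is the lowest p possible with 126 splits. After the correction it was -0.80 (adjusted p = 0.024), with no overlap either way.

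Within class II, H2-Aa took a larger part of the reads in KO hearts. H2-Eb1 reads per H2-Aa read were 1.35, 1.55, 1.35 and 1.59 in KO hearts, against 2.18, 2.45, 2.29, 2.13 and 1.798 in WT hearts. The principal transcripts of this pair have nearly equal GC content, while the longest have 46.5% for H2-Aa and 51.8% for H2-Eb1. The difference was -0.57 in the deposited counts (exact permutation p = 0.016, adjusted p = 0.032) and -0.56 after the correction (adjusted p = 0.024). The ratio with the longest transcripts was not tested. H2-Ab1 reads per H2-Aa read were 1.33, 1.17, 1.12 and 1.32 in KO hearts, against 1.72, 2.79, 2.12, 1.41 and 1.62 in WT hearts (difference -0.61, exact permutation p = 0.016, adjusted p = 0.032). In the corrected counts that difference was -1.09 (adjusted p = 0.024).

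The other pairs did not pass in the deposited counts. H2-D1 per H2-K1 ran from 0.421 to 0.710 in KO hearts and from 0.545 to 0.846 in WT hearts (exact permutation p = 0.23, adjusted p = 0.28), and Tap1 per Tap2 from 0.231 to 0.297 in KO hearts and from 0.200 to 0.410 in WT hearts (p = 0.35, exact permutation, adjusted p = 0.35). Cd74 per H2-Aa ran from 5.22 to 7.77 in KO hearts and from 7.07 to 17.1 in WT hearts, with WT hearts 2 and 3 highest (exact permutation p = 0.071, adjusted p = 0.11). After the correction the groups of this last ratio did not overlap, at 4.61 to 6.00 in KO hearts and 8.09 to 19.0 in WT hearts (difference -1.15, exact permutation p = 0.016, adjusted p = 0.024). The same 3 pairs as in the counts passed in FPKM. With a heart left out none of the 6 pairs passed, where the smallest exact p is 0.018 without a KO heart and 0.029 without a WT heart. Without any KO heart the adjusted p was 0.0536 for B2m per H2-K1 and for H2-Eb1 per H2-Aa and 0.107 for H2-Ab1 per H2-Aa, and without any WT heart it was 0.0571 for all 3. The 3 differences kept their sign each time.

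**Figure D4:**
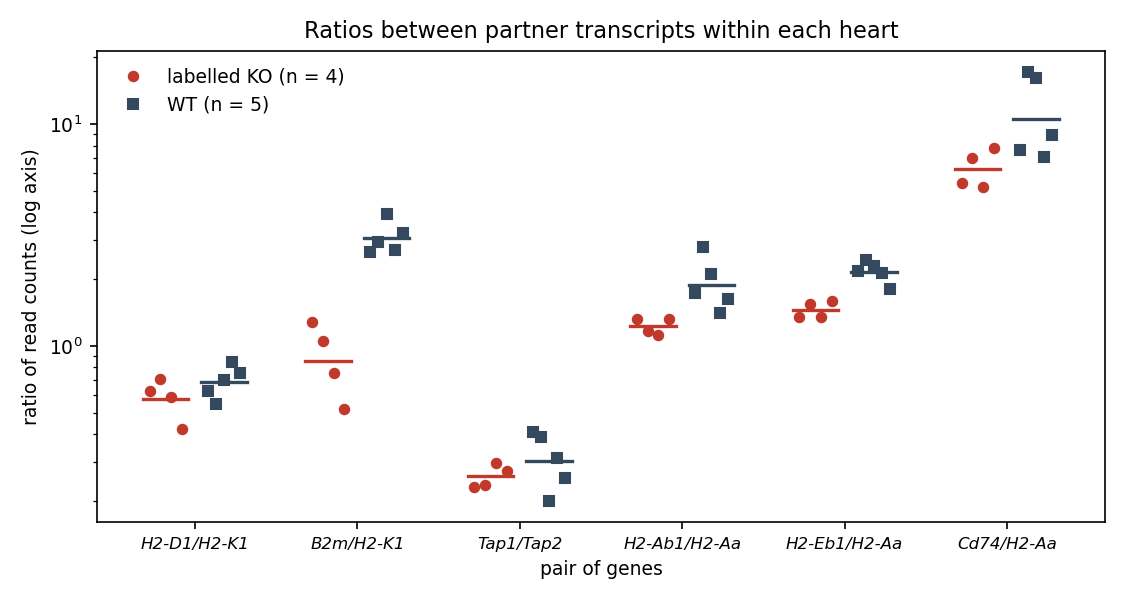
Ratios of read counts between partner transcripts in each heart (log axis), with labelled KO hearts as circles on the left and WT hearts as squares on the right. Lines mark geometric means. B2m/H2-K1, H2-Ab1/H2-Aa and H2-Eb1/H2-Aa are lower in every KO heart than in any WT heart, and the other 3 ratios overlap.

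FPKM values, which are per length, allow levels to be ordered between genes. In KO hearts the order by mean was Cd74 (198 ± 70.8 FPKM), B2m (172 ± 13.1), H2-D1 (117 ± 22.4), H2-K1 (101 ± 33.0), Tapbp (41.3 ± 2.43), H2-Ab1 (39.0 ± 10.03), H2-Aa (36.5 ± 10.1), H2-Eb1 (31.5 ± 9.36), Tap2 (19.9 ± 4.45) and Tap1 (4.42 ± 1.36 FPKM; SD, n = 4). In WT hearts B2m came first (263 ± 126 FPKM), then Cd74 (151 ± 57.2), H2-D1 (45.0 ± 25.7), H2-K1 (41.4 ± 23.9), H2-Ab1 (27.5 ± 10.6), Tapbp (22.6 ± 5.35), H2-Eb1 (21.9 ± 9.99), H2-Aa (17.1 ± 7.60), Tap2 (5.93 ± 3.20) and Tap1 (1.70 ± 1.30 FPKM; SD, n = 5). Most neighbours in these orders overlapped over hearts. Ranges were separate between B2m and H2-D1, H2-K1 and Tapbp, and Tap2 and Tap1 in KO hearts, and between Cd74 and H2-D1 in WT hearts. B2m exceeded Cd74 in 5 of 5 WT hearts, while Cd74 exceeded B2m in 3 of 4 KO hearts.

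The FPKM table is scaled differently, and its median gene stood 0.44 log2 units higher in KO hearts. On log2(FPKM + 1) limma called 6 of the 10 genes higher (H2-K1, H2-D1, Tap1, Tap2, Tapbp and H2-Aa) and 0 lower, where 47.2% of tested genes were higher and 6.09% lower. B2m stood at -0.50 and was not called (adjusted p = 0.162). Groups did not overlap for Tap2 and Tapbp, as for 41.3% of genes higher in KO hearts, and for 0 of the 10 on the lower side, where the share of all genes was 4.23%. After each heart was centred on its median gene, 4 were higher (H2-K1, H2-D1, Tap2 and Tapbp) and B2m was lower, at -0.99 ± 0.24 (limma adjusted p = 0.00646), with 25.4% of genes higher and 28.4% lower. H2-D1 is the gene on which the tables differ most, at 0.98 ± 0.24 in centred FPKM (limma adjusted p = 0.00673) and 0.45 in the counts. Its FPKM were 90.3, 108, 132 and 139 in KO hearts, against 90.4, 28.4, 34.6, 39.7 and 31.9 in WT hearts.

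Most of the other class I heavy chain genes listed had few or no assigned reads. H2-Q6, H2-Q7 and H2-L were at 0 reads in all 9 hearts, and whether reads of like genes went unassigned was not tested. Of 16 listed, 5 had enough reads to be tested, and the other 11 had at most 6 reads in any heart. H2-T23, which encodes the nonclassical molecule Qa-1, was higher in KO hearts, at 12.5, 15.8, 16.7 and 15.6 CPM, against 7.67, 5.20, 8.59, 6.11 and 7.31 CPM in WT hearts. No value overlapped, as in 22.3% of tested genes in this direction. Its log2 fold change was 1.11 ± 0.16 (adjusted p = 8.95e-05), or 0.78 after the correction (adjusted p = 0.00114). H2-M3, which presents formylated peptides, including those of mitochondria, rose as well, at a low level. It had 2.99 ± 0.66 CPM in KO hearts (SD, n = 4) and 1.08 ± 0.49 CPM in WT hearts (SD, n = 5), a log2 fold change of 1.25 ± 0.29 (adjusted p = 0.00263), and 1.17 after the correction (adjusted p = 0.00498). H2-Q4, H2-T10 and H2-T24 did not pass. Of all tested genes 26.2% were called higher, or 18.7% after the correction.

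Upstream of the TAP pump, 4 of 5 immunoproteasome genes rose and 1 fell (2 and 1 after the correction). Here and for the lists below, 26.2% of all tested genes were higher and 25.2% lower (18.7% and 19.4% after the correction). The catalytic subunits Psmb10 (log2 fold change 1.43 ± 0.18, adjusted p = 3.18e-05) and Psmb8 (1.38 ± 0.32, adjusted p = 0.00244) and the activator subunit Psme2 (0.66 ± 0.15, adjusted p = 0.00176) were higher, and the activator subunit Psme1 was lower (-0.54 ± 0.11, adjusted p = 0.00128). Once corrected, Psmb10, Psmb8 and Psme1 still passed, at 0.87, 0.93 and -1.02, and Psme2 did not (0.33, adjusted p = 0.0564). Psmb9, the remaining higher gene, shares 212 exonic bases with Tap1 on the opposite strand.

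Downstream, 3 of 5 genes of peptide loading and trimming fell and 0 rose. They were the chaperones Calr (-0.62 ± 0.20, adjusted p = 0.0167) and Canx (-0.54 ± 0.16, adjusted p = 0.0133), which fold class I heavy chains among many other glycoproteins, and the peptidase Erap1 (-0.72 ± 0.22, adjusted p = 0.0141), which trims peptides to length. Only Calr passed after the correction (-0.59, adjusted p = 0.0351), where Canx stood at 0.094 and Erap1 at -0.064. The groups of Calr overlapped through WT heart 1, with 265 to 305 CPM in KO hearts and 271 to 609 CPM in WT hearts. Without the 2 shallowest WT hearts 1 of the 5 was lower (Erap1), and Calr (-0.25, adjusted p = 0.155) and Canx (-0.31, adjusted p = 0.107) did not pass.

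Of 11 genes of class II loading and proteolysis, 7 were tested, 2 rose and 0 fell (3 and 0 after the correction). H2-DMb1, part of the exchange factor that loads class II molecules, had 2.41 ± 0.83 CPM in KO hearts (SD, n = 4) and 0.99 ± 0.63 CPM in WT hearts (SD, n = 5; log2 fold change 1.03 ± 0.39, adjusted p = 0.0377), and did not pass after the correction (0.71, adjusted p = 0.157). The endosomal protease Lgmn rose by 0.41 ± 0.11 (adjusted p = 0.00497), and by 0.29 after the correction (adjusted p = 0.0193). The call of H2-DMb1 was kept with KO heart 1 or WT heart 1 left out and lost with any of the other 7. H2-DMb2, H2-Oa, H2-Ob and H2-Eb2 had at most 19 reads in any heart and were not tested.

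Among 12 transcriptional regulators of MHC genes, 5 rose and 2 fell (4 and 2 after the correction). Of all tested genes 26.2% were higher and 25.2% lower (18.7% and 19.4% after the correction). Irf1, an interferon-induced activator of class I genes, had 25.6 ± 3.82 CPM in KO hearts (SD, n = 4) and 14.02 ± 2.30 CPM in WT hearts (SD, n = 5). The groups of Irf1 did not overlap, as in 22.3% of tested genes in this direction (log2 fold change 0.84 ± 0.15, adjusted p = 0.000432). Irf8, a factor of myeloid cells, rose by 1.0004 ± 0.25 (adjusted p = 0.00362). Irf2, which binds the same elements as Irf1, had 17.8, 21.8, 19.4 and 22.8 CPM in KO hearts, against 39.2, 165, 134, 46.6 and 64.0 CPM in WT hearts, with the shallow hearts 2 and 3 highest. It fell by 2.09 ± 0.36 on the log2 scale (adjusted p = 0.000247). Nfya, a subunit of the CCAAT-binding factor, fell by 0.96 ± 0.21 (adjusted p = 0.00166), while its other subunits Nfyb (0.26) and Nfyc (0.17) did not pass. In the corrected counts Irf1, Irf8, Irf2 and Nfya passed in the same directions, at 0.63, 0.63, -1.76 and -0.99. Nfyb (0.95, adjusted p = 0.000417) and Creb1 (0.71, adjusted p = 0.00456) were called higher there but not in the deposited counts, and Nfyc did not pass (0.22). The transactivator Nlrc5 did not pass (0.26, adjusted p = 0.576), and Ciita was called at 0.78 (adjusted p = 0.0390) but not after the correction (0.42, adjusted p = 0.238). The count of regulators called higher was 2 without KO heart 2, KO heart 4 or WT heart 4 and 3 without KO heart 3, WT heart 2, WT heart 3 or WT heart 5, with Irf1 and Irf8 among them each time.

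Of 13 genes that interferon-gamma induces outside antigen presentation, 11 were tested, and 7 of them fell and 0 rose in KO hearts, where 25.2% of all tested genes were lower. They had a median log2 fold change of -0.67 over the 11 tested, and 3 fell after the correction, with a median of -0.26. The GTPase Iigp1 had 12.7, 4.34, 5.86 and 9.88 CPM in KO hearts, against 47.7, 32.3, 48.9, 34.3 and 25.3 CPM in WT hearts (-2.20 ± 0.28, adjusted p = 3.07e-05). Every KO value of Iigp1 lay below every WT value, and so did those of the chemokine Cxcl9, at 2.09 to 2.79 CPM in KO hearts and 5.80 to 13.9 CPM in WT hearts (-1.72 ± 0.25, adjusted p = 8.63e-05). Such a separation held for 19.3% of tested genes in this direction. The GTPase Irgm2 (-1.02 ± 0.22, adjusted p = 0.00156) and Cd274, the ligand PD-L1 (-0.93 ± 0.22, adjusted p = 0.00251), fell as well. Iigp1, Cxcl9 and Irgm2 also passed after the correction (-1.45, -1.13 and -0.69), and Cd274 did not (-0.47, adjusted p = 0.114). The untested chemokine Cxcl10 went the other way, with 7, 19, 11 and 15 reads in KO hearts and 3, 1, 1, 1 and 0 reads in WT hearts, and it was called higher with no filter on low counts (2.61 ± 0.65, adjusted p = 0.00265) and by DESeq2 (2.68, adjusted p = 0.00519). Transcripts of Ifng itself numbered at most 2 reads in any heart. Of 5 tested genes of interferon-gamma signalling the kinases Jak1 (-0.76 ± 0.15, adjusted p = 0.000755) and Jak2 (-0.52 ± 0.21, adjusted p = 0.0449) fell and 0 rose. After the correction Jak1 was still lower (-0.50, adjusted p = 0.00594) and Jak2 was not called (-0.024, adjusted p = 0.933). Jak2 also lost its call with no filter, with upper-quartile factors, by DESeq2, and without KO heart 2, 3 or 4 or WT heart 1, 4 or 5.

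**Figure D5:**
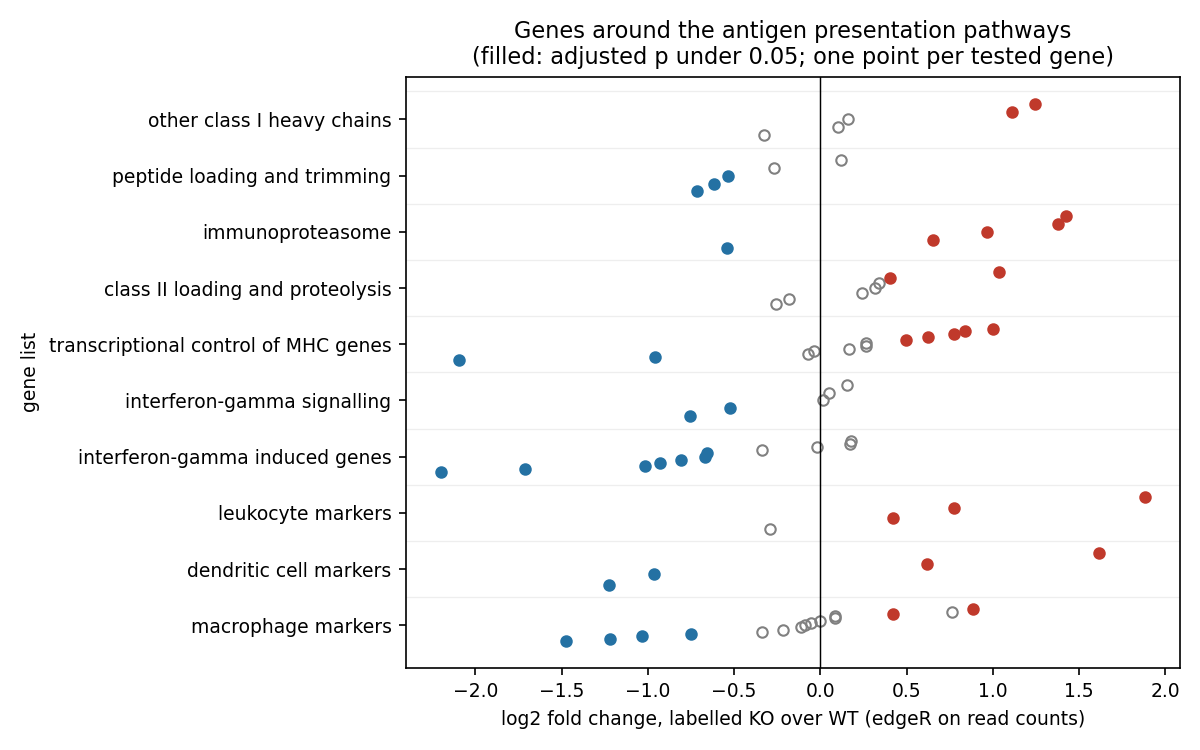
Log2 fold change, KO over WT, by edgeR for each tested gene of the lists around the antigen presentation pathways, 1 list per line, with filled points for an adjusted p below 0.05. Immunoproteasome points lie mostly to the right of 0, those of interferon-gamma induced genes mostly to the left, and macrophage markers lie on both sides.

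Markers of the cells that make class II gave no single direction. Their counts stand beside 26.2% of all tested genes higher and 25.2% lower (18.7% and 19.4% after the correction). Pan-leukocyte markers were higher in KO hearts for 3 of 4 genes, with a summed level of 39.5 to 51.8 CPM in KO hearts and 18.2 to 31.0 CPM in WT hearts, led by the actin regulator Coro1a (1.88 ± 0.32, adjusted p = 0.000247; 1.29 after the correction). Ptprc, which encodes CD45, did not pass (-0.29, adjusted p = 0.354). After the correction 1 of the 4 was called. Macrophage markers were split, with 2 of 15 tested genes higher and 4 lower (0 and 5 after the correction), and their sum ran from 255 to 297 CPM in KO hearts and from 241 to 336 CPM in WT hearts. Timd4 (-1.48 ± 0.29, adjusted p = 0.000722), Cd68 (-1.04 ± 0.22, adjusted p = 0.00145) and Cx3cr1 (-1.22 ± 0.36, adjusted p = 0.0107) were lower, and C1qa (0.89 ± 0.20, adjusted p = 0.00165) was higher. After the correction Timd4, Cd68 and Cx3cr1 passed at -0.9994, -1.33 and -1.17, and C1qa did not (0.097, adjusted p = 0.643). The other C1q genes did not follow C1qa. C1qb (-0.091, adjusted p = 0.609) and C1qc (0.085, adjusted p = 0.699) were not called in the deposited counts. Both were lower after the correction, at -0.74 (adjusted p = 0.00053) and -0.55 (adjusted p = 0.00825). The macrophage counts were 1 higher without KO heart 2 or WT heart 2, and 1 higher and 2 lower without the 2 shallowest WT hearts.

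Dendritic cell markers were sparse. Of 11 genes 4 were tested, and Cd40 (1.62 ± 0.32, adjusted p = 0.000675) and Zbtb46 (0.62 ± 0.21, adjusted p = 0.0249) rose while Clec9a (-1.23 ± 0.29, adjusted p = 0.00256) and Cd86 (-0.96 ± 0.36, adjusted p = 0.0349) fell. After the correction Cd40, Zbtb46 and Clec9a passed at 1.79, 0.70 and -0.84, and Cd86 did not (-0.42, adjusted p = 0.368). Cd86 also lost its call without KO heart 1, 2 or 4 or WT heart 5, with no filter and by DESeq2, and Zbtb46 without KO heart 3, WT heart 5 or both shallow WT hearts. Their sum was 13.6 to 19.3 CPM in KO hearts and 11.8 to 17.2 CPM in WT hearts. B cell markers summed to 1.503 to 3.56 CPM in KO hearts and 3.02 to 4.86 CPM in WT hearts, with Cd79a lower (-0.96 ± 0.31, adjusted p = 0.0191; -1.33 after the correction, adjusted p = 0.0048). Cd79a was not called without KO heart 2, KO heart 4 or WT heart 1. T and NK cell markers summed to 1.14 to 1.81 CPM in KO hearts and 1.86 to 5.20 CPM in WT hearts, and only Cd4 of 8 was tested (-0.50, adjusted p = 0.299; -0.61 after the correction, adjusted p = 0.226). The 7 untested genes had at most 12 reads in any heart. The highest sum, in the shallow WT heart 2, was mostly Cd3d, at 12 reads or 4.16 CPM. None of these markers was at 0 reads in all 9 hearts. The part of these markers in the values of the class II genes was not tested.

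Endothelial cells, which carry class I at high density, gave 3 of 8 markers higher and 2 lower (2 and 1 after the correction). For these and the next 2 lists the shares of all tested genes were 26.2% higher and 25.2% lower (18.7% and 19.4% after the correction). Egfl7 (1.12 ± 0.15, adjusted p = 3.73e-05), Tie1 (0.88 ± 0.14, adjusted p = 0.000116) and Vwf (0.73 ± 0.17, adjusted p = 0.00205) were higher and Emcn was lower (-0.72 ± 0.14, adjusted p = 0.000576). Kdr was the other lower marker (-0.32, adjusted p = 0.0494). Emcn alone was called lower without any 1 of the 4 KO hearts or without WT heart 3, 4 or 5. After the correction Egfl7 (0.47, adjusted p = 0.00832) and Tie1 (0.27, adjusted p = 0.0390) were still higher. Vwf (0.30, adjusted p = 0.1555) and Emcn (-0.33, adjusted p = 0.0703) were not called there. Cdh5, not called in the deposited counts (-0.31, adjusted p = 0.0904), was the lower marker after the correction (-0.47, adjusted p = 0.017). The endothelial sum ran from 721 to 868 CPM in KO hearts and from 765 to 939 CPM in WT hearts. Fibroblast markers had 2 of 5 higher and 2 lower (0 and 2 after the correction), with Lum (-2.12 ± 0.29, adjusted p = 5.52e-05) and Dcn (-1.21 ± 0.23, adjusted p = 0.000507) lower and Col1a1 (0.81 ± 0.23, adjusted p = 0.00829) and Col1a2 (0.60 ± 0.18, adjusted p = 0.012) higher. Cardiomyocyte markers had 2 of 6 higher, Myh6 (0.55 ± 0.14, adjusted p = 0.00516) and Tnni3 (0.63 ± 0.14, adjusted p = 0.00171), and 1 lower, Pln (-1.43 ± 0.13, adjusted p = 4.59e-06). Pln alone of these 3 passed after the correction (-0.61, adjusted p = 0.000389).

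Within genotypes most of the genes varied in parallel from heart to heart. After each genotype was centred on its own mean and the trends were removed, the 6 pairs of class II genes had a median Pearson r of 0.79 over the 9 hearts (0.64 to 0.96), with H2-Aa and H2-Eb1 the closest pair (0.96). The 15 pairs within the class I group had a median of 0.56 (-0.55 to 0.85), and the low values belong to Tapbp. Their sign depended on the correction. Without it, r of Tapbp with the others of this group ran from 0.18 (B2m) to 0.66 (Tap2). The 24 pairs across the groups had a median of 0.64. These values share library depth and the small number of hearts, and they are given as descriptions.

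Among 11957 other genes, those most like the mean of the class II group over hearts were Gbp5 (r = 0.96), Gbp7, Gbp6, C1qtnf9, Hiatl1, Emcn, Lgals3bp and Efr3a (0.93 to 0.95 for these 7). Those most like the class I group were Gbp4 (r = 0.94), Acsf3, Capza2, H2-Q5, Plin2, A530016L24Rik, Irgm2 and H2-Q4 (0.91 to 0.93 for these 7). Guanylate-binding proteins headed both orders, and Gbp4, Gbp6, Gbp7 and Irgm2 also belong to the list of interferon-gamma induced genes. These lists are the top of a large number of genes compared over 9 hearts, where high values are common. The order was made on corrected values, and without the correction r was between 0.59 (Emcn) and 0.94 for the 8 genes most like class II and between 0.69 (Capza2) and 0.97 for the 8 most like class I. Between genotypes Gbp6 (-0.81, adjusted p = 0.0239) and Gbp4 (-0.67, adjusted p = 0.0239) were lower in KO hearts while Gbp7 did not pass (-0.34, adjusted p = 0.161). Once corrected, none of Gbp4, Gbp6 and Gbp7 passed (-0.082, -0.34 and 0.37).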

How the data were processed

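RNA-seq was measured in 4 KO and 5 WT hearts, as single-end libraries of polyadenylated RNA that do not keep strand, per the labels' protocols. The authors deposited read counts per gene (23457 rows, used as deposited) and a table of FPKM values (23369 rows). Per the submitters' processing notes, reads were handled on build mm10 by TopHat2 2.0.10, TopHat and Bowtie2, and Cufflinks 2.1, HTSeq, edgeR and DESeq are named too, with no roles given. Annotation, strand setting and FPKM depth: not given in the sources used here. Reads of antisense or near-identical genes may therefore be shared.

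Counts were tested with edgeR 4.0.16 in R 4.3.3 (TMM factors, its expression filter by group with at least 10 reads and 15 in total, quasi-likelihood F test, Benjamini-Hochberg adjustment over all tested genes, threshold 0.05). Standard errors come from the F statistic. FPKM were tested with limma 3.58.1 on log2(FPKM + 1), keeping a mean FPKM of 0.5 or more, which understates the change of low genes. Trends were removed with lowess curves (span 0.3) of each heart's deviation against GC content, then length, of the APPRIS principal transcript on GRCm38, used as offsets. They covered 99.2% of tested genes. Corrected CPM and correlations use a prior count of 2 where logged. Ratios were compared by exact permutation over 126 splits. Depth was 4415183 to 20827699 reads, and intervals cover counting error only. Procedures were tested on simulated data.

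The genes, lists and tests were chosen with earlier results of these data known. All 10 genes are named, and from each other list up to 4 genes past the threshold with the smallest p, or the 2 most abundant where none passed. Ptprc, Psmb9, Nlrc5, Ciita, Ifng, H2-Q4, H2-T10, H2-T24 and untested genes were named beyond that rule, after their values were seen. So were Kdr, Cdh5, Nfyb, Nfyc, Creb1, C1qb and C1qc, and Gbp4, Gbp6 and Gbp7 with their fold changes. Genes of like pattern were the 8 with the highest correlation to each group's mean, at a mean of at least 1 CPM. Alternatives were DESeq2 1.42.0, limma-voom, upper-quartile or RLE factors, filtering at a mean of 1 CPM or not at all, hearts left out, the replicate number as a block, omission of mitochondrial genes and Rn45s, a threshold of 0.1, an FPKM pseudocount of 0.1 and centred FPKM. Leaving hearts out with the trends removed, and GC content of the longest transcript, were chosen after seeing the data. No pair of hearts held identical counts.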

Additional observations from a re-analysis of the deposited data

Results flagged for a closer look

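WT heart 1 stood apart from the other 4 WT hearts in 5 of 52 groups of values examined by Dixon's criterion, which chance exceeds in about 1 group of 20. All 5 are high values of class I pathway genes. Tap2 had 24.8 CPM there, against 12.5 to 15.1 CPM in the other WT hearts, and 11.5 FPKM, against 3.51 to 5.52 FPKM. H2-K1 had 83.5 FPKM, against 24.2 to 35.9 FPKM. H2-D1 had 90.4 FPKM, against 28.4 to 39.7 FPKM. Tap1 had 3.98 FPKM, against 0.703 to 1.48 FPKM. WT heart 1 was also the deepest library, with 20827699 reads, and had the lowest mitochondrial share of its group (32.62%). The part of either in these values was not tested. Without this heart edgeR called H2-D1 higher in KO hearts (0.66, adjusted p = 0.00438), and B2m was still called lower (-1.02).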

How the results depend on the processing

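Tap2 and B2m were past the threshold in the same direction under each count alternative run, except that B2m after trend removal lost its call in 6 of 9 fits with a heart left out and without the 2 shallowest WT hearts (adjusted p = 0.134). For the 10 genes, the count called higher was 1 to 6 with a heart left out (1 without KO heart 3, KO heart 4, WT heart 3, WT heart 4 or WT heart 5, and 2 without WT heart 2), 1 without the 2 shallowest WT hearts, 1 with the replicate number as a block, and 1 with the trends removed, with or without the block. The single gene was Tap2 each time. The count called lower was 2 with the trends removed and 3 with the block added. With the trends removed, it was 0 to 3 with a heart left out and 0 without the 2 shallowest WT hearts, while the count called higher was 1 to 2. Using the longest transcript for GC content and length gave 2 higher and 4 lower, and H2-D1 at -0.022. With that choice H2-Aa was called higher (0.82, adjusted p = 0.0154). Tapbp (-0.24, adjusted p = 0.0447) and Cd74 (-0.79, adjusted p = 0.0462) were called lower. None of these calls was made with the principal transcript. Whether the numbers 1 to 4 pair hearts is not given in the labels. Correlations of deviations between hearts of the same number were -0.24 to 0.031. They cannot decide it, since a shared litter need not raise them. With the block, 2 of 12 regulators and 0 of 7 class II loading genes were higher, and 1 of 5 signalling genes was lower. With the block and the trends removed 1581 genes were higher and 1866 lower over all genes. Directions turned for Tapbp (-0.21) and H2-Eb1 (-0.12) with the trends removed, and with the block as well for these (-0.20 and -0.27) and H2-D1 (-0.064), for H2-Eb1 with the block alone (-0.16), for H2-Ab1 with voom (0.14), and for H2-Ab1 (0.13) and Cd74 (0.26) without the 2 shallowest WT hearts, and H2-D1 (-0.010) there with the trends removed. With a heart left out H2-Ab1 ran from -0.20 to 0.12, H2-Eb1 from -0.16 to 0.21 and Cd74 from -0.45 to 0.053, and with the trends removed H2-D1 from -0.084 to 0.17 and H2-Eb1 from -0.31 to 0.0845. Centring FPKM gave 3214 genes higher and 3593 lower, 1 of the 10 lower, and Cd74 at -0.0996. With a heart left out 2841 to 3399 of all genes were higher in the counts, and in FPKM 511 to 877 were lower. The H2-D1 to H2-K1 ratio was 0.13 in FPKM. Pairs past the threshold were 0 with any heart left out. The cause of the other changes was not tested. Depth limits Tap1 most, with 9 and 14 reads in the shallowest hearts.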
